A study of Mus musculus with 13 samples.

Results

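The 10 stem and early progenitor genes described here are Kit, Cd34, Prom1, Meis1, Hoxa9, Mecom, Hlf, Flt3, Mycn and Erg, followed across 13 RNA sequencing libraries of mouse bone marrow progenitors. They were chosen by name from 24062 gene entries, with earlier results of these libraries known, and Prom1 was among the genes named in those results. Their differences between groups are therefore given as descriptions, and no p-value beside them is independent evidence. Values are in log2 CPM, counts per 1 M reads of the library on a log2 scale. All 10 passed the filter on low values, a mean of 0 log2 CPM or more, which left 11867 genes for testing.

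The cells were LK cells, the fraction of bone marrow that lacks lineage markers and Sca-1 and carries c-kit, sorted from transplanted mice. Each group was defined by the donor marrow. TIFAB_KO marrow was TIFAB-/-;miR-146a+/+ (3 libraries), miR-146a_KO marrow was TIFAB+/+;miR-146a-/- (3 libraries), dKO marrow was TIFAB-/-;miR146a-/- (4 libraries) and WT marrow was TIFAB+/+;miR-146a+/+ (3 libraries). Recipients in every group, WT included, were syngeneic Boy/J mice that had received lethal irradiation of 7.0 Gy and 4.75 Gy with 3 h between them, and the labels give an age of 2 to 5 months. The design asks whether loss of both genes alters blood progenitors more than loss of either. Per the labels there were 3 mice per group, yet dKO has 4 libraries, and nothing states which library came from which mouse. P-values below thus measure the spread between libraries, which may be partly technical. Cells that survive in an irradiated host can add recipient RNA, and the amount was not measured here.

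Blood stem cells and multipotent progenitors sit at the top of the blood system and lose most of their defining genes as they commit to a lineage. KIT and FLT3 are receptor tyrosine kinases that answer stem cell factor and FLT3 ligand, while CD34 and PROM1 are surface glycoproteins used to recognise immature cells. HOXA9 and MEIS1 bind DNA together, and MECOM, HLF and ERG are transcription factors needed for stem cell maintenance. miR-146a lowers TRAF6 and IRAK1, and TIFAB restrains TRAF6, so that both act on the Toll-like receptor and NF-kB pathway.

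Sequences are shown first because miR-146a is one of the removed genes, and microRNAs lower transcripts that pair with their seed. The mature microRNA and the single match found among them are printed 5′ to 3′. In the microRNA, capitals mark the seed (bases 2 to 8), and in the Hoxa9 stretch they mark the letters complementary to it.
mmu-miR-146a-5p: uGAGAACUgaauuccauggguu
Hoxa9 3′ UTR match: aaaagagagatAGTTCTCcgggatgcata
The microRNA sequence is from RefSeq (GRCm38.p6, chr11:43374435-43374456, minus strand). The Hoxa9 stretch lies in the 3′ untranslated region of its longest annotated form in GENCODE M21 (GRCm38, the mm10 build, chr6:52223539-52223567, minus strand), at base 688 of 1144, and no A follows the match. Of the 10 genes, Hoxa9 was the only one with AGTTCTC in any annotated 3′ untranslated region. That is 10.0% of them, against 1734 of 10818 tested genes with an annotated region (16.0%). Meis1 had 4 matches to the shorter complement of bases 2 to 7 and none to bases 2 to 8. A match is a run of letters and not a shown binding site.

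The promoter of Prom1 is printed because Prom1 had the widest differences between libraries. It runs from 250 bases before to 50 bases after a start site annotated in RefSeq (GRCm38.p6, chr5:44101687-44101986, minus strand). Capitals mark matches on either strand to the AP-1 motif TGANTCA and, nearer the start, to a loose NF-kB motif (GGG, any 5 letters, then CC).
Prom1 promoter: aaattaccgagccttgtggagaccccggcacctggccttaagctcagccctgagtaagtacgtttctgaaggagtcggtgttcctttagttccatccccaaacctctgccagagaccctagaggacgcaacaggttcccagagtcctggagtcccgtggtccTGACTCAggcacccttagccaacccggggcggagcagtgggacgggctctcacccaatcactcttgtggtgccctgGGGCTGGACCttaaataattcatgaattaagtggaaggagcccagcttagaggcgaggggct
The matches do not overlap each other. Of 32851 promoter windows of this length, 7.81% held the AP-1 letters and 50.8% held the NF-kB letters, so the NF-kB letters are common. The Hoxa9 promoter (chr6:52227321-52227620, minus strand) held neither of them, nor the GATA letters AGATAA, the ETS letters CCGGAA or the HOX-PBX letters TGATTNAT, which occurred in 11.2%, 14.9% and 3.22% of windows. No value here bears on binding at either promoter.

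Totals were 7.83 to 12.8 M reads per library. Tifab had 8.95 to 12.8 CPM in TIFAB_KO and 3.23 to 11 CPM in dKO, against 64.4 to 70.8 CPM in miR-146a_KO and 39.6 to 49.4 CPM in WT, so it was lower in every library from TIFAB-/- marrow. Mir146, the entry for the miR-146a gene, had 0 reads in all 13 libraries, WT included, so the labels of miR-146a loss could not be checked. The sort was visible in the data, since Ly6a, which encodes Sca-1, had 5 to 46 reads (0.597 to 5.30 CPM) in every library, and Procr, a surface marker of stem cells, had 0.633 to 4.15 CPM. Mpo, a granulocyte-monocyte progenitor gene, had 6715 to 14550 CPM. The stem and early progenitor genes were therefore measured in a fraction with low levels of these markers of the most primitive cells, and Kit was part of the gate, so that its level was partly set by the sort. In such bulk samples, fewer cells of a type and less RNA per cell cannot be told apart. A pair of libraries stood apart from the rest, with a median correlation of 0.947 (TIFAB_KO replicate 3) and 0.951 (dKO replicate 3) to the other libraries, and TIFAB_KO replicate 3 had 10.7% of its reads on 45S pre-rRNA. Where leaving out either of them moved a printed fold change of a gene by over 1.5 times, the value without it is given beside it.

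Per kilobase of transcript, the 10 genes spanned a wide range. Kit (chr5:75574916-75656722) and Cd34 (chr1:194938819-194961279) were highest, with mean levels of 6.23 and 6.09 on the scale of log2 CPM per kilobase over 13 libraries. Kit exceeded Cd34 in 9 of 13 libraries, by 0.15 ± 0.32 (SD), so their order did not hold beyond the spread. Flt3 (chr5:147330741-147400489) followed at 3.99 and Erg (chr16:95359169-95586593) at 3.83, a further pair whose difference of 0.16 ± 0.45 was within its SD. Meis1 (chr11:18879817-19018985) at 3.28, Hlf (chr11:90336536-90390895) at 2.65 and Hoxa9 (chr6:52223100-52231089) at 2.14 were each lower than the gene before by more than the SD of the difference. Mycn (chr12:12936093-12941914) at 1.70, Prom1 (chr5:43993620-44102032) at 1.48 and Mecom (chr3:29951296-30548008) at 0.49 were lowest. Prom1 and Mycn differed by 0.22 ± 1.07, and the place of Prom1 changed with the group. Prom1 was also the most variable, its SD over libraries of 1.03 log2 CPM being larger than that of 98.05% of tested genes, while the SD of Meis1 was 0.20.

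**Figure D1:**
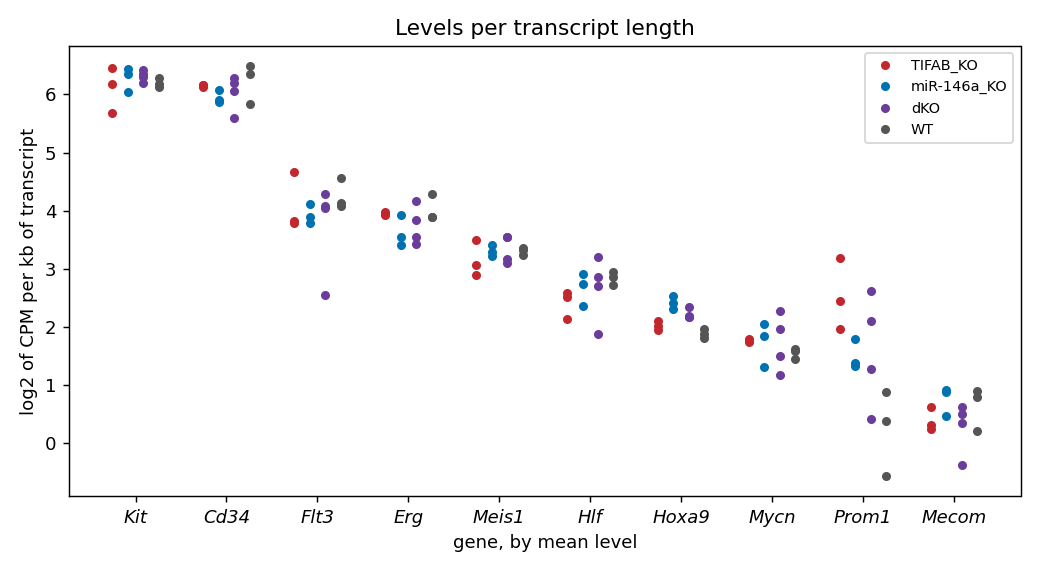
Level of each gene per kilobase of its longest annotated transcript, as log2 CPM per kilobase, with 1 point per library and groups set side by side. Kit and Cd34 lie at the top and Mecom at the bottom, and the points of Prom1 are spread most widely.

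Across genotypes, no gene of the 10 passed the threshold in any comparison. With limma and a Benjamini-Hochberg adjusted p under 0.05 over all 11867 genes, the count was 0 of 10 in TIFAB_KO against WT (0.0169% of all tested genes called), in miR-146a_KO against WT (0.0843%), in dKO against WT (0.0674%), in dKO against TIFAB_KO (0.0337%), in dKO against miR-146a_KO (0.0506%) and in the interaction (0%). The interaction asks whether dKO differs from WT by more or less than the differences of TIFAB_KO and miR-146a_KO added together. With limma-voom weights on reads recovered from the values, the counts were also 0. At an unadjusted p under 0.05 the counts were 1 (Prom1) in TIFAB_KO against WT, 2 (Prom1 and Hoxa9) in miR-146a_KO against WT, 1 (Prom1) in dKO against WT, 1 (Prom1) in dKO against TIFAB_KO, 0 in dKO against miR-146a_KO and 1 (Prom1) in the interaction. Over all tested genes, 5.11%, 9.53%, 14.1%, 18.5%, 1.93% and 4.23% had such a p in the same order of comparisons. The median log2 fold change of the 10 genes was -0.09 in TIFAB_KO against WT (all tested genes -0.01), 0.04 in miR-146a_KO against WT (0.09) and -0.07 in dKO against WT (0.08). It was -0.07 in dKO against TIFAB_KO (0.09) and 0.01 in dKO against miR-146a_KO (-0.01). Each of these medians changed sign under at least 1 alternative. Comparisons that name the same group share its libraries.

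**Figure D2:**
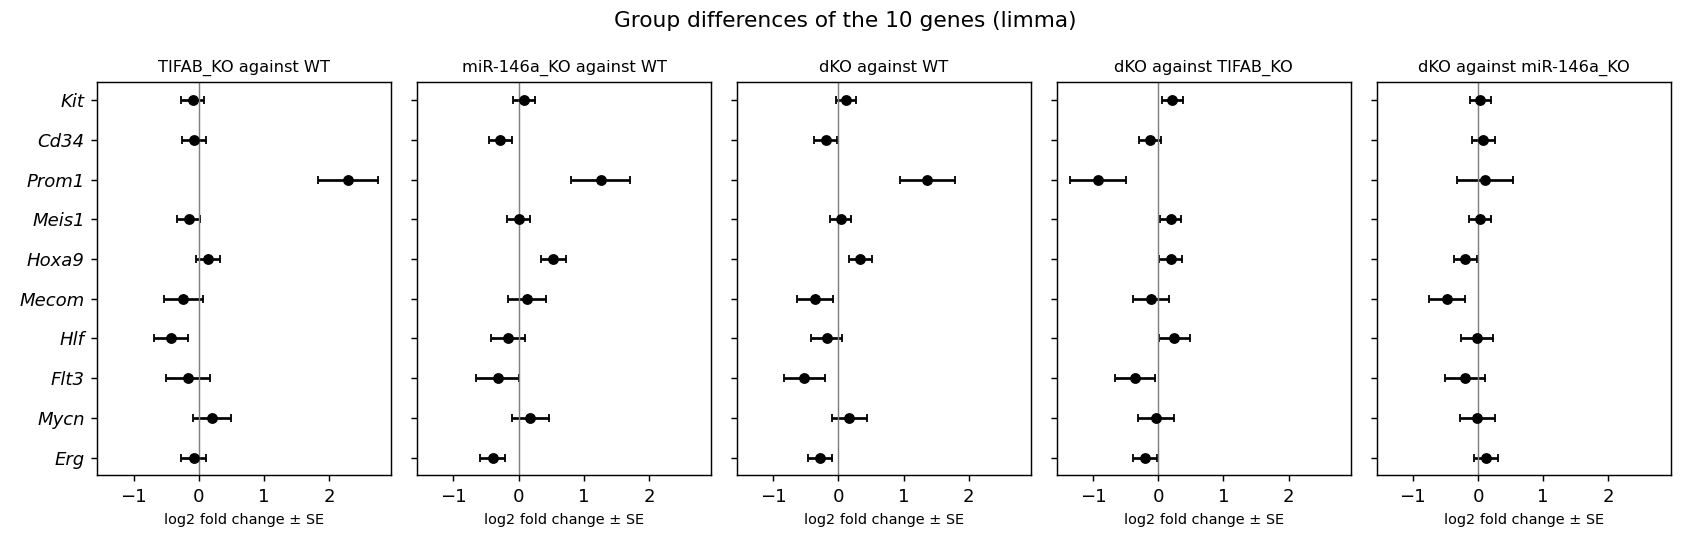
Log2 fold change of each gene with its SE from limma in 5 comparisons, 1 panel each, where a positive value is higher in the first group named. Prom1 lies farthest from 0 in the comparisons against WT (2.29, 1.26 and 1.37), and the other 9 genes lie between -0.52 and 0.53 there.

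Prom1, which encodes the membrane glycoprotein prominin-1 (CD133), had the widest differences. It had 4.0, 5.22 and 4.49 log2 CPM in TIFAB_KO replicates 1 to 3, 3.83, 3.42 and 3.36 in miR-146a_KO, 4.14, 3.32, 4.66 and 2.46 in dKO, and 2.92, 2.42 and 1.50 in WT. All 3 TIFAB_KO libraries and all 3 miR-146a_KO libraries lay above the highest WT library, whereas dKO replicate 4 lay among the WT libraries. Without overlap between libraries are 8.52% of tested genes in TIFAB_KO against WT and 21.9% in miR-146a_KO against WT. The counts behind these levels were 411 reads in TIFAB_KO replicate 2 (37.1 CPM, 95% Poisson interval 33.6 to 40.9) and 27 reads in WT replicate 3 (2.77 CPM, 1.83 to 4.03). These intervals cover counting error only, since reads copied by PCR are not independent molecules.

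The group means of Prom1 were 4.57 ± 0.61 log2 CPM in TIFAB_KO, 3.54 ± 0.26 in miR-146a_KO, 3.64 ± 0.96 in dKO and 2.28 ± 0.72 in WT (SD; n = 3, 3, 4 and 3). The log2 fold change was 2.29 ± 0.46 (SE) in TIFAB_KO against WT, a ratio of 4.90, and the limma adjusted p was 0.192. Its size exceeded that of 99.89% of tested genes in this comparison. The value was 1.26 ± 0.46 in miR-146a_KO against WT (limma adjusted p = 0.473) and 1.37 ± 0.43 in dKO against WT (limma adjusted p = 0.216). Prom1 in dKO was 0.93 lower than in TIFAB_KO (log2 fold change -0.93 ± 0.43, limma adjusted p = 0.258) and 0.11 ± 0.43 higher than in miR-146a_KO (limma adjusted p = 1.0), a value that was -0.23 without dKO replicate 3. The interaction was -2.18 ± 0.62 (limma adjusted p = 0.701), which is a dKO level below the sum of the separate differences.

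Whether Prom1 passed the threshold depended on single libraries. Without TIFAB_KO replicate 1 the log2 fold change in TIFAB_KO against WT was 2.57 (limma adjusted p = 0.0322), and without dKO replicate 4, which enters this comparison only through the shared spread, it was 2.29 (limma adjusted p = 0.0322). Without dKO replicate 4 the value in dKO against WT was 1.76 (limma adjusted p = 0.0217). Over all alternatives the log2 fold change stayed between 1.90 and 2.61 in TIFAB_KO against WT (adjusted p 0.0322 to 0.979), between 0.87 and 1.58 in miR-146a_KO against WT (0.0888 to 0.891), and between 0.98 and 1.76 in dKO against WT (0.0217 to 0.493). Without TIFAB_KO replicate 3 and dKO replicate 3 together it was 2.33 in TIFAB_KO against WT (adjusted p = 0.338) and 1.03 in dKO against WT (adjusted p = 0.296).

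Marker lists of mature and committed cells also differed in sum between groups. Their part in the differences of Prom1 and the other 9 genes was not tested. A sum is weighted towards the genes with the most reads, such as Mpo in the granulocyte-monocyte list and Cd79b in the B lineage list. Granulocyte-monocyte progenitor genes (23 genes) summed to 19625 to 21281 CPM in TIFAB_KO libraries, 14175 to 18003 in miR-146a_KO libraries and 12047 to 17483 in dKO libraries, against 10697 to 16675 in WT. Macrophage genes (13 genes with an entry) summed to 56.9 to 146 CPM in TIFAB_KO libraries, 69.5 to 84.5 in miR-146a_KO ones and 79.1 to 129 in dKO ones, against 52.2 to 63.1 in WT, and mast cell, basophil and eosinophil genes (22 genes) to 901 to 1350, 918 to 1125 and 572 to 1481, against 646 to 927. In TIFAB_KO against WT, 0 of 23 granulocyte-monocyte progenitor genes passed as higher and 1 as lower (limma), which was Tifab itself, a member of that list. At an unadjusted p under 0.05 (limma), 14 were higher and 1 lower, where 5.11% of all tested genes had such a p. Their median log2 fold change was 0.64, with 22 above 0 and 1 below. Among those that did not pass, Gfi1, a transcription factor of granulocyte fate, had a log2 fold change of 1.31, Prtn3, a granule protease, 1.11 and Ms4a3, a marker of this progenitor stage, 1.21 (limma adjusted p = 0.428 for each). Of the macrophage list, C1qa was at 0 to 1.33 CPM in all libraries, with 0 reads in 7 of them, while C1qb reached 8.21 CPM in TIFAB_KO. Of 8 tested macrophage genes, 0 passed in TIFAB_KO against WT (limma), and 6 were above 0 and 2 below. At an unadjusted p under 0.05 (limma), 4 were higher and 0 lower. Vcam1, an adhesion molecule, C1qb, Axl and Mrc1 had log2 fold changes of 1.87, 2.07, 1.61 and 1.68 (limma adjusted p = 0.585, 0.873, 0.676 and 0.950). C1qb was 1.27 without TIFAB_KO replicate 3. Of the mast cell, basophil and eosinophil list, Tpsab1 was at 0 in every library. Of its 18 tested genes, 0 passed in TIFAB_KO against WT (limma), with 15 above 0 and 3 below. At an unadjusted p under 0.05 (limma), 6 were higher and 1, Gata2 (-0.41), was lower. Prg2, an eosinophil granule protein, had a log2 fold change of 1.79 there (limma adjusted p = 0.621). The entries of Hba-a1, Hba-a2, Hbb-b1 and Hbb-bt, the defining globins of red cells, were at 0 in every library. Whether reads of these genes could be counted was not tested, so the zeros are not read as absence of globin RNA. The erythroid list (27 genes) summed to 2069 to 2421 CPM in TIFAB_KO libraries, 2327 to 2836 in miR-146a_KO ones and 2270 to 3574 in dKO ones, against 3134 to 3926 in WT. The sums of both single knockouts thus lay below WT without overlap. Car1 alone, a gene of this list, had 767 to 1024 CPM in TIFAB_KO, 911 to 1173 in miR-146a_KO and 1375 to 1769 in WT. Of 22 tested erythroid genes, 1 was above 0 and 21 below in TIFAB_KO against WT (median log2 fold change -0.36). In miR-146a_KO against WT, 8 were above 0 and 14 below (-0.17). Megakaryocyte and platelet genes (21 genes) summed to 1934 to 2414 CPM in TIFAB_KO libraries, 1763 to 2237 in miR-146a_KO ones and 1647 to 2552 in dKO ones, against 2347 to 2643 in WT. B lineage genes (13 genes) summed to 17.1 to 21.0 CPM in TIFAB_KO libraries, 30.3 to 42.4 in miR-146a_KO ones and 17 to 30.7 in dKO ones, against 17.2 to 22.0 in WT. In miR-146a_KO the megakaryocyte sums were below and the B lineage sums above all WT libraries. T and NK cell genes (12 genes) summed to 10.3 to 21.3 CPM over all libraries, and stromal and endothelial genes (15 genes) to 269 to 400 CPM.

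**Figure D3:**
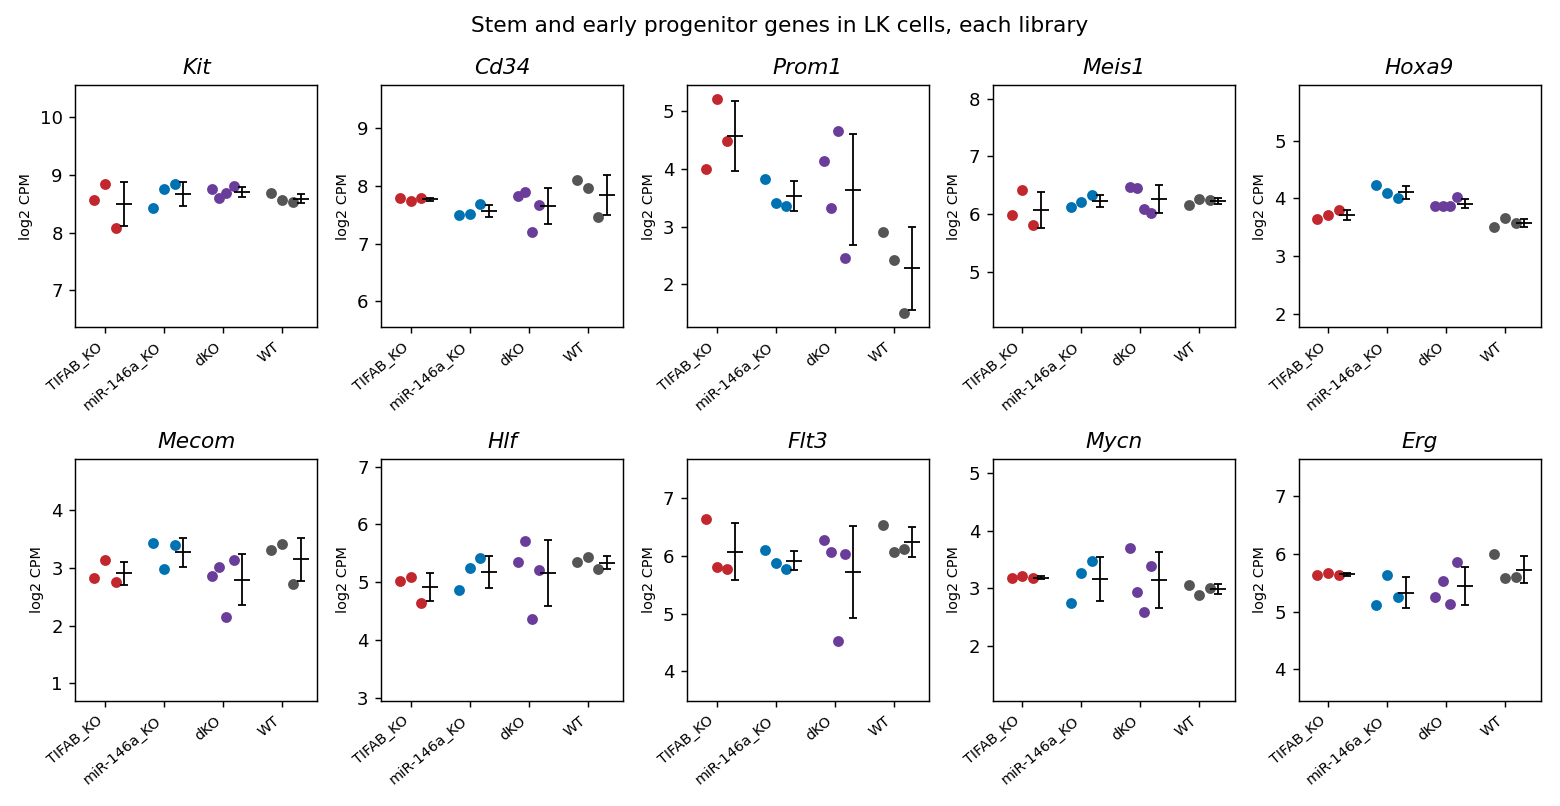
Log2 CPM of each gene in every library, with 1 point per library and the mean ± SD of the group (n = 3, 3, 4 and 3). All panels span the same number of log2 units, so that the spread of Prom1 (1.50 to 5.22) can be set against that of Meis1 (5.81 to 6.47).

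The other surface genes differed little between genotypes. Kit had 8.56, 8.84 and 8.08 log2 CPM in TIFAB_KO replicates 1 to 3, 8.43, 8.75 and 8.83 in miR-146a_KO, 8.75, 8.59, 8.68 and 8.81 in dKO, and 8.68, 8.57 and 8.52 in WT. Both the lowest and the highest library were TIFAB_KO, and the log2 fold changes were -0.10 ± 0.17 for TIFAB_KO, 0.08 ± 0.17 for miR-146a_KO and 0.12 ± 0.16 for dKO, each against WT. Without TIFAB_KO replicate 3, the first was 0.11. Cd34, a sialomucin used to divide progenitors, had 7.78, 7.74 and 7.78 log2 CPM in TIFAB_KO, 7.49, 7.51 and 7.69 in miR-146a_KO, 7.82, 7.90, 7.20 and 7.67 in dKO, and 8.10, 7.97 and 7.46 in WT. The knockout libraries (7.20 to 7.90) overlapped the WT libraries (7.46 to 8.10), and the log2 fold changes against WT were -0.07 ± 0.18, -0.28 ± 0.18 and -0.20 ± 0.17 in the same order. The last was -0.05 without dKO replicate 3, which had the lowest Cd34. An antisense gene, Gm16897, overlaps Cd34, and without stated strand counting reads from the pair cannot be told apart. Genes on the opposite strand also overlap Prom1 (Gm16401), Flt3 (Gm26597), Mecom and Meis1, with the same limit. On the same strand, Gm42716 overlaps Prom1 and Mir196b overlaps Hoxa9.

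Flt3, the receptor of multipotent and lymphoid-primed progenitors, had 6.65, 5.81 and 5.78 log2 CPM in TIFAB_KO, 6.10, 5.88 and 5.78 in miR-146a_KO, 6.27, 6.07, 4.53 and 6.03 in dKO, and 6.54, 6.07 and 6.12 in WT. The low value of dKO stood in replicate 3 only, where 200 reads were counted, and the other 3 dKO libraries (6.03 to 6.27) lay within or just below the WT range (6.07 to 6.54). The log2 fold change in dKO against WT was -0.52 ± 0.31 with all libraries (limma adjusted p = 0.445) and -0.12 without dKO replicate 3 (limma adjusted p = 0.834). In dKO against TIFAB_KO it was -0.35 ± 0.31 with that library and 0.05 without it. The value in miR-146a_KO against WT was -0.32 ± 0.33, and after centring each library on its median or TMM scaling the 3 miR-146a_KO libraries lay below all 3 WT libraries, as 20.9% and 21% of tested genes have no overlap there under these scalings.

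Of 16 tested genes among ligands and signalling partners of KIT and FLT3, 0 passed in either direction in any comparison (limma). At an unadjusted p under 0.05 there was 1 in dKO against WT, 1 higher and 1 lower in dKO against TIFAB_KO, and 0 in the others. The first was Sos1, a Ras exchange factor, with a log2 fold change of 0.42 ± 0.16 (limma adjusted p = 0.261). Of 9 tested lymphoid-primed progenitor genes, 0 passed in any comparison (limma), and at an unadjusted p under 0.05 there were 2 lower in dKO against WT, 1 lower in miR-146a_KO against WT and 1 lower in dKO against TIFAB_KO. Dntt, the DNA polymerase that adds bases at antigen receptor joints, had a log2 fold change of -2.23 ± 0.85 in dKO against WT (limma adjusted p = 0.273), with 13.5, 11, 0.346 and 23.3 CPM in dKO and 31.9, 24.9 and 30.1 CPM in WT. The low value was 3 reads in dKO replicate 3, and without that library the difference was -0.93. Dntt was also lower than WT in TIFAB_KO (-1.37 ± 0.91, 8.99 to 14.0 CPM) and in miR-146a_KO (-1.25 ± 0.91, 8.76 to 14.2 CPM). The limma adjusted p was 0.999 and 0.649. All 10 knockout libraries lay below the 3 WT libraries, where 0.885% of tested genes have no overlap. The nearest were dKO replicate 4 (274 reads, 23.3 CPM) and WT replicate 2 (244 reads, 24.9 CPM). Whether this narrow gap exceeds counting error or holds under other scalings was not tested. Lsp1, a leukocyte actin-binding protein, had -0.69 ± 0.20 in dKO against WT (limma adjusted p = 0.211).

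Hoxa9, a homeobox factor of stem and progenitor cells and the gene with the seed match printed above, was the only one of the 10 whose libraries divided by miR-146a genotype. It had 3.64, 3.71 and 3.80 log2 CPM in TIFAB_KO replicates 1 to 3, 4.23, 4.10 and 4.0 in miR-146a_KO, 3.87, 3.86, 3.88 and 4.03 in dKO, and 3.51, 3.65 and 3.57 in WT. Every miR-146a_KO and every dKO library lay above all 3 WT libraries, and all 4 dKO libraries lay above the 3 TIFAB_KO libraries. Of all tested genes, 21.9% have no overlap in miR-146a_KO against WT, 12.5% in dKO against WT and 10.7% in dKO against TIFAB_KO. Mean levels were 4.11 ± 0.11 in miR-146a_KO, 3.91 ± 0.08 in dKO, 3.72 ± 0.08 in TIFAB_KO and 3.58 ± 0.07 in WT (SD).

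Pooled by miR-146a genotype, a grouping chosen after these values were seen, the 7 libraries that lack miR-146a had 3.86 to 4.23 log2 CPM of Hoxa9 and the 6 that have it 3.51 to 3.80. Over all genes, 1.57% separated these libraries in either direction and 1.06% were higher in all 7. None of the 10 genes separated the 7 libraries lacking Tifab from the 6 with it (0.0927% of tested genes do, 0.0253% as higher), or the 10 knockout libraries from the 3 WT libraries (0.885%, 0.573% as higher). The gap of 0.06 log2 CPM between the nearest libraries was within counting error, since dKO replicate 2 had 14.5 CPM (117 reads, 95% Poisson interval 12.0 to 17.4) and TIFAB_KO replicate 3 had 13.9 CPM (178 reads, 11.9 to 16.1). The separation was lost under other scalings, with a gap of -0.08 after median centring, -0.04 after quantile normalization and -0.21 after TMM scaling, each of which placed TIFAB_KO replicate 3 above the lowest dKO library. It held, with a gap of 0.16, without TIFAB_KO replicate 3 and dKO replicate 3. Under all of these scalings miR-146a_KO and dKO each remained above WT without overlap. Under them, 20.8 to 21% of tested genes have no overlap in miR-146a_KO against WT and 11.4 to 11.5% in dKO against WT.

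By limma the log2 fold change of Hoxa9 was 0.53 ± 0.19 in miR-146a_KO against WT (adjusted p = 0.464), 0.33 ± 0.18 in dKO against WT (adjusted p = 0.399) and 0.14 ± 0.19 in TIFAB_KO against WT (adjusted p = 0.999). The ratio in miR-146a_KO was 1.45. In dKO it was 0.19 ± 0.18 against TIFAB_KO and -0.20 ± 0.18 against miR-146a_KO. Of the 126 genes higher in all 7 libraries lacking miR-146a, 119 had an annotated 3′ untranslated region. The seed match was held by 21 of these (17.65%), set beside 16.0% of all tested genes with such a region. Of the 60 genes lower in all 7 libraries, 58 had such a region and 4 of these (6.9%) held the match.

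Neighbours of Hoxa9 in the HOXA cluster gave no such order. Hoxa7, Hoxa10 and Hoxa5, homeobox genes of the same cluster, had mean levels of 3.45, 1.65 and 1.99 log2 CPM in miR-146a_KO, 2.98, 1.50 and 1.63 in dKO, and 3.49, 1.94 and 1.87 in WT. Of 13 tested genes in the list of HOXA, MEIS and PBX genes and their chromatin cofactors, 0 passed in any comparison (limma). At an unadjusted p under 0.05, 2 were higher and 1 lower in miR-146a_KO against WT. Kmt2a, the MLL1 methyltransferase that maintains HOX expression, had a log2 fold change of 0.49 ± 0.20 there (limma adjusted p = 0.494) and 0.44 ± 0.18 in dKO against WT (0.305). Pknox1, a partner of PBX proteins, had 0.35 ± 0.15 (limma adjusted p = 0.517).

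Meis1, the DNA-binding partner of HOXA9, was the steadiest gene of the 10. It had 5.98, 6.41 and 5.81 log2 CPM in TIFAB_KO, 6.13, 6.21 and 6.33 in miR-146a_KO, 6.47, 6.46, 6.09 and 6.01 in dKO, and 6.16, 6.27 and 6.24 in WT. No group stood apart, and the log2 fold changes against WT were -0.16 ± 0.17 for TIFAB_KO, 0.0017 ± 0.17 for miR-146a_KO and 0.03 ± 0.16 for dKO. They were -0.03 for TIFAB_KO without its replicate 3 and 0.09 for dKO without its replicate 3. Mecom, whose product EVI1 maintains stem cells, had 2.83, 3.14 and 2.76 log2 CPM in TIFAB_KO, 3.44, 2.99 and 3.40 in miR-146a_KO, 2.87, 3.02, 2.15 and 3.14 in dKO, and 3.30, 3.41 and 2.73 in WT. At 38 to 118 reads per library its groups overlapped, and the largest of its differences was -0.48 ± 0.28 in dKO against miR-146a_KO (limma adjusted p = 1.0). It was -0.26 without dKO replicate 3.

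Hlf, a PAR bZIP factor that marks stem cells, had 5.01, 5.08 and 4.64 log2 CPM in TIFAB_KO, 4.87, 5.24 and 5.41 in miR-146a_KO, 5.36, 5.71, 4.37 and 5.21 in dKO, and 5.35, 5.44 and 5.22 in WT. All 3 TIFAB_KO libraries lay below the lowest WT library, and the order held under each scaling tried (8.52% of tested genes have no overlap in this comparison as deposited, and 9 to 9.45% under the scalings), while dKO held both the highest and the lowest library. The log2 fold change in TIFAB_KO against WT was -0.43 ± 0.26 (limma adjusted p = 0.999). In dKO against WT it was -0.18 ± 0.24 with all libraries and 0.08 without dKO replicate 3.

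Mycn, a MYC family factor active in immature blood cells, had 3.17, 3.21 and 3.18 log2 CPM in TIFAB_KO, 2.74, 3.27 and 3.48 in miR-146a_KO, 3.70, 2.93, 2.60 and 3.38 in dKO, and 3.05, 2.88 and 3.01 in WT. TIFAB_KO lay above WT without overlap (8.52% of tested genes have none there), by a log2 fold change of 0.20 ± 0.29 (limma adjusted p = 0.999), while miR-146a_KO and dKO reached both sides of WT. Its relative Myc had log2 fold changes of 0.43 ± 0.18 for TIFAB_KO, 0.39 ± 0.18 for miR-146a_KO and 0.46 ± 0.16 for dKO, each against WT (limma adjusted p = 0.883, 0.521 and 0.257). Of 10 tested MYC family members and partners, 0 passed in any comparison (limma). At an unadjusted p under 0.05, 2 were higher and 1 lower in dKO against WT. These were Myc and the dimer partner Mga (0.54 ± 0.17) on the higher side and Mxd4, an antagonist of MYC (-0.69 ± 0.30), on the lower.

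Erg, an ETS factor of stem cells, had 5.64, 5.68 and 5.63 log2 CPM in TIFAB_KO, 5.11, 5.63 and 5.25 in miR-146a_KO, 5.26, 5.54, 5.13 and 5.86 in dKO, and 5.99, 5.59 and 5.60 in WT. Of the 3 miR-146a_KO libraries 2 lay below every WT library and replicate 2 lay among them, with a log2 fold change of -0.40 ± 0.20 (limma adjusted p = 0.536). After median centring, quantile normalization or TMM scaling all 3 lay below WT, where 20.9%, 20.8% and 21% of tested genes have no overlap. In dKO against WT the value was -0.28 ± 0.19, and -0.18 without dKO replicate 3. Of 11 tested factors that work with ERG in blood cells, 0 passed in any comparison (limma), and at an unadjusted p under 0.05 there were 2 lower in TIFAB_KO against WT, 1 higher in dKO against WT, and 3 higher and 1 lower in dKO against TIFAB_KO. Runx1, a core factor of blood development, had a log2 fold change of 0.54 ± 0.18 in dKO against WT (limma adjusted p = 0.235). Gfi1b, a transcriptional repressor active in the erythroid and megakaryocyte lineages, had -0.50 ± 0.22 in TIFAB_KO against WT (limma adjusted p = 0.938).

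Taken by library, low values gathered in dKO replicate 3. It was the lowest of all 13 libraries for 5 of the 10 genes, namely Cd34, Mecom, Hlf, Flt3 and Mycn. The median deviation of the 10 genes from the WT mean was -0.49 log2 there, while that of all tested genes was 0.07. Its Prom1, at 4.66 log2 CPM, was the highest of the dKO libraries, on the other side of its group from Flt3 and Cd34. Next to these values, its granulocyte-monocyte progenitor genes summed to 17483 CPM, the highest of dKO, and its Ly6a, at 5.30 CPM, was the highest of all libraries. Its mast cell, basophil and eosinophil genes had the highest sum of all 13 libraries (1481 CPM) and its megakaryocyte and platelet genes the lowest (1647 CPM). Their part in the low values was not tested. TIFAB_KO replicate 3 had the lowest Kit and Meis1, with a median deviation of -0.24 (all tested genes -0.11). No other library was lowest for more than 1 of the genes.

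**Figure D4:**
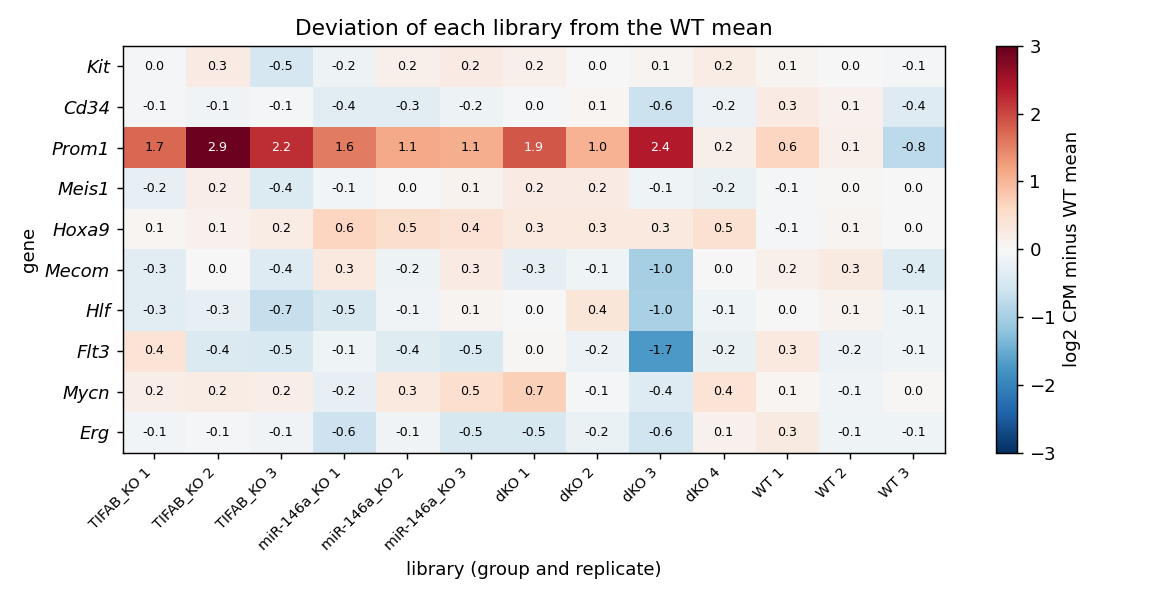
Log2 CPM of each gene in every library minus the mean of the 3 WT libraries, with genes as rows, libraries as columns and each difference printed to 1 decimal. Prom1 is above 0 in all 10 knockout libraries and Hoxa9 in all 10 as well, and dKO replicate 3 holds the lowest values of Flt3, Hlf and Mecom.

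The genes whose pattern over the 13 libraries was most like each of the 10 were picked by Pearson r among named genes whose mean was 1 log2 CPM or more, so the values are the highest of a large search and are given without a p. The libraries share groups, depth and composition. For Prom1 they were Gda (r = 0.93, Spearman rho = 0.91), Sgms2 (0.93, 0.87) and Lbp (0.93, 0.91). Hoxa9 was closest to Rrm2 (r = 0.85, rho = 0.88), Lyrm7 (0.83, 0.75) and Efcab7 (0.82, 0.77). For Kit they were Slc25a36 (r = 0.95), Pde4a (0.94) and Ercc4 (0.92), and for Flt3 Zfp608 (0.92), Ccdc135 (0.91) and Lactb (0.90). Hlf was closest to Cdkn2aip (r = 0.89), Mprip (0.89) and Gcnt2 (0.88), the last of which is on the list of other stem cell genes. None of the 10 was among the 3 genes most like another of them.

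Other stem cell and multipotent progenitor genes gave a similar account. Of 37 such genes 32 were tested, and 0 passed in any comparison (limma). At an unadjusted p under 0.05, 1 was higher and 2 lower in TIFAB_KO against WT, 1 higher and 3 lower in miR-146a_KO against WT, and 0 higher and 2 lower in dKO against WT. Their median log2 fold changes were -0.11, -0.06 and 0.06 in the same order. Summed, they had 3281 to 3975 CPM in TIFAB_KO libraries, 3522 to 4259 in miR-146a_KO ones and 3715 to 4406 in dKO ones. The WT libraries had 3877 to 3968 CPM, and dKO replicate 3 had 4103. In dKO against TIFAB_KO, 24 were above 0 and 8 below (median 0.18, all tested genes 0.09), where the 10 genes had 4 and 6 (-0.07). In the interaction, 27 were above 0 and 5 below (median 0.24, all tested genes 0.01), where the 10 genes had 5 and 5 (0.05). Pdzk1ip1, a membrane protein of stem cells, had a log2 fold change of -0.82 ± 0.31 in miR-146a_KO and -0.80 ± 0.29 in dKO, each against WT (limma adjusted p = 0.475 and 0.259). Vwf, a marker of platelet-primed stem cells and of megakaryocytes, had -0.68 ± 0.28 in miR-146a_KO and -0.73 ± 0.26 in dKO against WT (limma adjusted p = 0.499 and 0.258), the second being -0.47 without dKO replicate 3. Prdm16, a regulator of stem cell upkeep, had 1.19 ± 0.54 in TIFAB_KO and 1.30 ± 0.54 in miR-146a_KO against WT (limma adjusted p = 0.960 and 0.501). In dKO the level of Prdm16 was 1.37 ± 0.74 log2 CPM, against 0.68 ± 1.02 in WT (SD).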

How the data were processed

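Per the labels' protocols, RNA of sorted LK cells was amplified (Ovation RNA-Seq System v2) and made into Nextera XT libraries. Per the submitters' processing notes the tools were TopHat, featureCounts and limma, with the mm10 build; no version is given in the labels. The deposited values are log2 CPM, to which the authors' processing added 0.5 read per gene and 1 to each library total, as the values themselves show: whole reads came back for 100% of values within 0.01 read. All 13 columns were used, and totals were 7.83 to 12.8 M reads.

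The values were fitted as deposited with limma 3.58.1 in R 4.3.3, with 1 mean per group and a variance trend, over the 11867 genes whose mean was 0 log2 CPM or more. P-values were adjusted by the Benjamini-Hochberg method over all of them. A positive log2 fold change is higher in the first group named. Errors are SD for groups and SE for fold changes. Gene positions, transcript lengths (longest transcript) and 3′ untranslated regions came from GENCODE M21, and microRNA and promoter sequences from RefSeq; all 10 genes matched by symbol. Promoter motifs were searched on both strands and picked from general knowledge, with the values already seen.

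The 10 genes, the lists and the tests were chosen with earlier results of these data known. Up to 4 genes of a list were named per comparison, those with the smallest unadjusted p, besides Ly6a, Kit, Tifab and Mir146 as checks of the sort and labels and the 3 genes most like each of the 10. Procr, Mpo, C1qa, Hoxa7, Hoxa10 and Hoxa5, and the levels of Dntt, Prdm16 and Car1, were named in addition after their values were seen. The fits were tested on simulated data. The closing section gives the alternatives tried. The B, T and NK, erythroid, megakaryocyte and stromal lists, for which the report gives sums, had 0 calls by limma, with at most 9 genes of a list at an unadjusted p under 0.05.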

Additional observations from a re-analysis of the deposited data

Results flagged for a closer look

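A pair of values stood far from the other libraries of their group, relative to the range of that group. In groups of 4, the gap of the highest or lowest library to its nearest neighbour was compared with the whole range of the group, and chance marks about 1 in 20 such groups. Only dKO has 4 libraries, so only its libraries were examined in this way. Hoxa9 in dKO replicate 4, at 4.03 log2 CPM, was above the other 3 dKO libraries (3.86 to 3.88) by most of the range of the group. Flt3 in dKO replicate 3, at 4.53 log2 CPM, was below the other 3 (6.03 to 6.27) in the same way. For Hoxa9 the difference was within counting error. The 95% Poisson interval was 14.0 to 18.8 CPM in dKO replicate 4, and the intervals of the other dKO libraries lay within 12.0 to 17.4 CPM. The Hoxa9 value left the group mean above WT in any case, whereas the log2 fold change of Flt3 in dKO against WT, -0.52, was -0.12 without dKO replicate 3.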

How the results depend on the processing

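Of the 60 values made by 10 genes and 6 contrasts, 37 kept their sign under all 23 alternative settings tried, and 23, whose reported sizes were at most 0.35 (log2), changed sign in at least 1. Filters, other scalings, the pseudocount, other variance models, fits of only the groups compared and an adjusted p under 0.1 gave no call. The replicate block gave 1 call (Prom1 in dKO against WT, 1.76, adjusted p = 0.0337), in which dKO replicate 4, the sole library with that number, carries no weight. Of 18 pairs of libraries with the same replicate number, 2 correlated over 0.1 in their deviations from the group mean (-0.20 to 0.23). Pairs of unlike number were not set beside them, so this cannot decide whether the numbers pair the libraries. The column names also carry codes that the labels do not explain, some in more than 1 group, and 0 of the 5 pairs of libraries that share a code correlated over 0.1 (-0.09 to 0.06, a check added after seeing the data). Over all genes the block called 281 in dKO against WT and 146 in dKO against TIFAB_KO, against 8 and 4 without it, and 3 against 6 in dKO against miR-146a_KO. Over all genes and the other settings with all libraries, TIFAB_KO against WT had 0 to 2 calls (2 as reported), miR-146a_KO against WT 5 to 89 (10), dKO against WT 4 to 26 (8), dKO against TIFAB_KO 3 to 9 (4) and dKO against miR-146a_KO 3 to 6 (6). Leaving out 1 library gave 0 to 44, 4 to 12, 4 to 336, 3 to 278 and 2 to 5 in the same order, the highest without TIFAB_KO replicate 1 in the first and without dKO replicate 4 in dKO against WT and against TIFAB_KO. With limma-voom weights and TMM scaling together, the median over all tested genes was -0.01, against 0.09 as deposited, in miR-146a_KO against WT. Over all alternatives the median of the 10 genes was -0.15 to 0.02 in TIFAB_KO against WT, -0.06 to 0.05 in miR-146a_KO against WT, -0.17 to 0.09 in dKO against WT, -0.16 to 0.13 in dKO against TIFAB_KO and -0.10 to 0.13 in dKO against miR-146a_KO. Depth limits Mecom (38 to 118 reads) and Prom1 (from 27 reads) most. Leaving out each library in turn gave 0 to 1 calls in TIFAB_KO against WT and 0 to 1 in dKO against WT, each by Prom1. The gap of Hoxa9 between libraries lacking miR-146a and those with it, 0.06, was -0.08 with median centring, -0.042 with quantile normalization and -0.21 with TMM scaling, alternatives added after seeing the data. The other changes of sign, all in values without a call, are as follows, and their cause was not tested. Without TIFAB_KO replicate 3 and dKO replicate 3 together, the values of opposite sign were 0.11 for Kit in TIFAB_KO against WT, 0.084 for Hlf in dKO against WT, 0.033 for Cd34, 0.026 for Mecom, 0.15 for Mycn in dKO against TIFAB_KO, -0.23 for Prom1, 0.25 for Hlf, 0.20 for Flt3, 0.17 for Mycn in dKO against miR-146a_KO, -0.07 for Kit and 0.22 for Flt3 in the interaction. With limma-voom weights and TMM scaling, the values of opposite sign were -0.021 for Kit, -0.10 for Meis1, -0.0018 for Mecom in miR-146a_KO against WT, -0.068 for Meis1 in dKO against WT, 0.026 for Mycn in dKO against miR-146a_KO, and 0.0054 for Flt3 in the interaction. With median centring, the values of opposite sign were -0.079 for Meis1 in miR-146a_KO against WT, -0.034 for Meis1 in dKO against WT, 0.0011 for Mycn in dKO against miR-146a_KO, and 0.001 for Flt3 in the interaction. With quantile normalization, the values of opposite sign were -0.082 for Meis1 in miR-146a_KO against WT, -0.065 for Meis1 in dKO against WT, 0.0013 for Hlf and 0.018 for Mycn in dKO against miR-146a_KO. With the replicate block, the value of opposite sign was -0.021 for Erg in dKO against miR-146a_KO. In TIFAB_KO against WT, leaving out each library in turn gave -0.27 to 0.11 for Kit, -0.27 to 0.053 for Cd34 and -0.15 to 0.053 for Erg. In miR-146a_KO against WT, leaving out each library in turn gave -0.052 to 0.049 for Meis1 and -0.084 to 0.27 for Mecom. In dKO against WT, leaving out each library in turn gave -0.037 to 0.12 for Meis1, -0.36 to 0.084 for Hlf and -0.012 to 0.35 for Mycn. In dKO against TIFAB_KO, leaving out each library in turn gave -0.20 to 0.026 for Cd34, -0.23 to 0.10 for Mecom, -0.54 to 0.045 for Flt3 and -0.22 to 0.15 for Mycn. In dKO against miR-146a_KO, leaving out each library in turn gave -0.085 to 0.12 for Kit, -0.0003 to 0.23 for Cd34, -0.23 to 0.50 for Prom1, -0.038 to 0.11 for Meis1, -0.20 to 0.25 for Hlf, -0.38 to 0.20 for Flt3, -0.22 to 0.17 for Mycn and -0.021 to 0.27 for Erg. In the interaction, leaving out each library in turn gave -0.078 to 0.30 for Kit and -0.21 to 0.37 for Flt3.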
